A study of Mus musculus with 8 samples.

Results

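The insulin-like growth factor (IGF) family was followed here through 10 genes, comprising the ligands Igf1 and Igf2, the receptors Igf1r and Igf2r, and 6 binding proteins, Igfbp2 to Igfbp7. The members were chosen by name and taken as the array rows whose platform annotation gave a single symbol. All 10 were found, among 22180 genes measured in this way, and each had 1 row. The arrays were made from 8 intact MMTV-PyMT mammary tumors, taken at an age of 3 to 4 months on a congenic FVB/NJ background, 4 in each of 2 groups of biological replicates. The first group, called cKO here, is labelled conditional knockout and carried MMTV-PyMT, MMTV-Cre+ and Mmp14(f/f). The second, called WT as the labels do, comprised littermates with MMTV-PyMT and Mmp14(f/f) but no Cre, so that both groups held floxed alleles and differed in the transgene as well as in Mmp14. The MMTV promoter drives the middle T oncogene and Cre mainly in mammary epithelium, and whole tumors also hold stromal, vascular and immune cells in which the floxed alleles need not be recombined.

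IGF1 and IGF2 are secreted peptides that activate the tyrosine kinase receptor IGF1R, which signals through insulin receptor substrates to PI3 kinase and AKT and promotes growth and survival. IGF2R, the mannose 6-phosphate receptor, takes up IGF2 for lysosomal breakdown and does not signal growth in this way. IGFBP2 to IGFBP6 bind IGFs with high affinity outside the cell, extend their half-life and limit access to the receptor until proteases cleave them, whereas IGFBP7 binds IGFs weakly and is made largely by vessels. In the mammary gland, stromal cells are a known local source of IGF1, and IGFBP5 is known for its rise during involution.

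Mmp14 encodes the membrane-anchored protease MT1-MMP, and its transcript served as the check of the labels. It had log2 signals of 7.98, 7.74, 7.44 and 7.72 in cKO 1 to 4, against 8.86, 9.12, 9.31 and 9.17 in WT 1 to 4, a difference of −1.40 (SE 0.13, limma adjusted p 0.0444). The adjusted p was 0.0708 with array number as a block and as high as 0.211 with 1 tumor left out, while the difference then lay between −1.48 and −1.30. The sources used here do not say where its probes lie with respect to the floxed segment. Array medians lay between 3.64 and 3.71 on the log2 scale, and pairs of arrays had an r of 0.976 to 0.989 over all rows. All 13 markers of mammary tumor epithelium, among them Epcam, Krt8 and Krt18, had a mean log2 signal of at least 5. Their mean level ran from 8.94 to 9.29 in cKO tumors and from 8.97 to 9.59 in WT tumors. Of them 10 were lower in cKO on average, where 43.5% of all rows were, with a median difference of −0.084. Krt19 alone had an unadjusted p below 0.05 in limma, at −1.15 (p 0.023), where 9.68% of all rows did. The labels call the tumors biological replicates but do not say how many mice or glands they came from. The p-values set the group difference against the spread between these samples, and may not hold between mice.

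No member of the family passed the threshold of an adjusted p of 0.05 between cKO and WT tumors, where 0.0085% of the 23521 rows tested did. Adjusted p-values of the 10 members, from limma with Benjamini-Hochberg adjustment over all rows, lay between 0.463 and 0.957. Of the members, 8 had a lower mean in cKO tumors, including all 6 binding proteins, and 2 had a higher one, whereas 43.5% of all rows and 48.4% of the 10186 rows averaging 5 or more were lower. The median difference over the members was −0.26 on the log2 scale, beside 0.023 over all rows tested. In 0 of the 10 members did the groups lie fully apart, as they did in 5.42% of all rows. At an unadjusted p below 0.05 there was 1 member, Igfbp3, which was lower in cKO, beside 9.68% of all rows, or 4.14% counting only those lower in cKO.

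**Figure D1:**
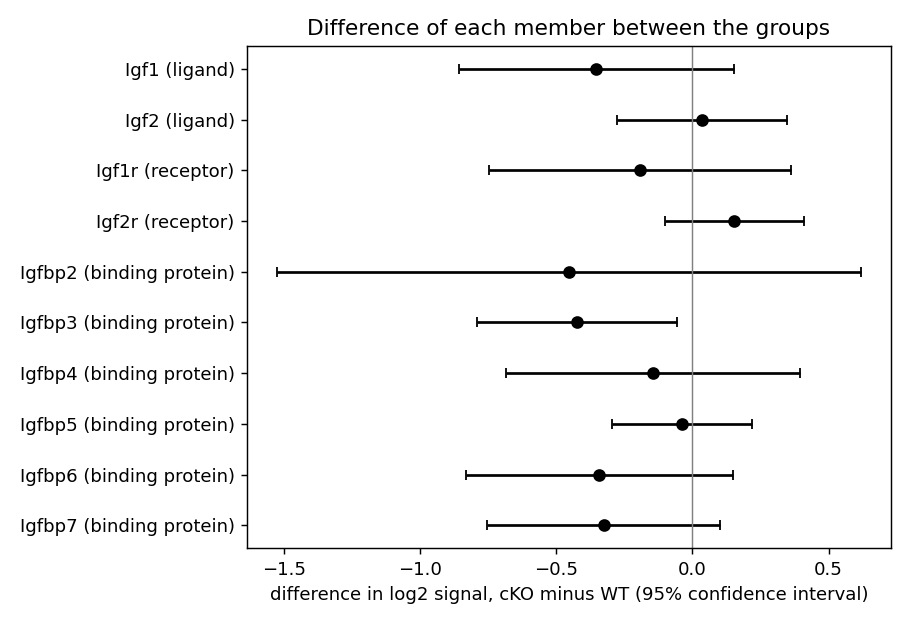
Difference in log2 signal between cKO and WT tumors for each member, with the 95% confidence interval from limma (n = 4 tumors per group, negative values lower in cKO). The interval of Igfbp3, from −0.79 to −0.057, leaves out 0, and that of Igfbp2, from −1.53 to 0.62, is the widest.

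The ligand Igf1 had log2 signals of 4.92, 4.79, 4.59 and 5.69 in cKO 1 to 4, against 5.42, 5.57, 5.35 and 5.07 in WT 1 to 4. Thus 3 cKO tumors lay below every WT tumor and the remaining one, cKO 4, lay above every WT tumor. The means were 4.997 ± 0.48 in cKO and 5.35 ± 0.21 in WT (SD, n = 4 each), a difference of −0.35 (SE 0.22, 95% interval −0.86 to 0.15, limma adjusted p 0.655). That put cKO tumors at 78.3% of the WT signal, with an interval from 55.2% to 111%. Without cKO 4 the difference was −0.58, and without cKO 3 it was −0.22. It was −0.64 among arrays numbered 1 to 4 and −0.069 among arrays 5 to 8, each with 2 tumors per group. The labels name no batch, and the array numbers are not known to mark one.

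Igf2, an imprinted fetal growth factor, had signals of 3.72, 3.64, 4.08 and 3.74 in cKO 1 to 4 and of 3.72, 3.93, 3.93 and 3.45 in WT 1 to 4. The groups overlapped throughout, with a difference of 0.036 (SE 0.14, 95% interval −0.27 to 0.35, limma adjusted p 0.957). These signals lay at about the array medians with no evidence here that they exceed background, and the interval bounds a difference in signal and not in RNA. Its sign turned when cKO 3 or WT 4 was left out.

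**Figure D2:**
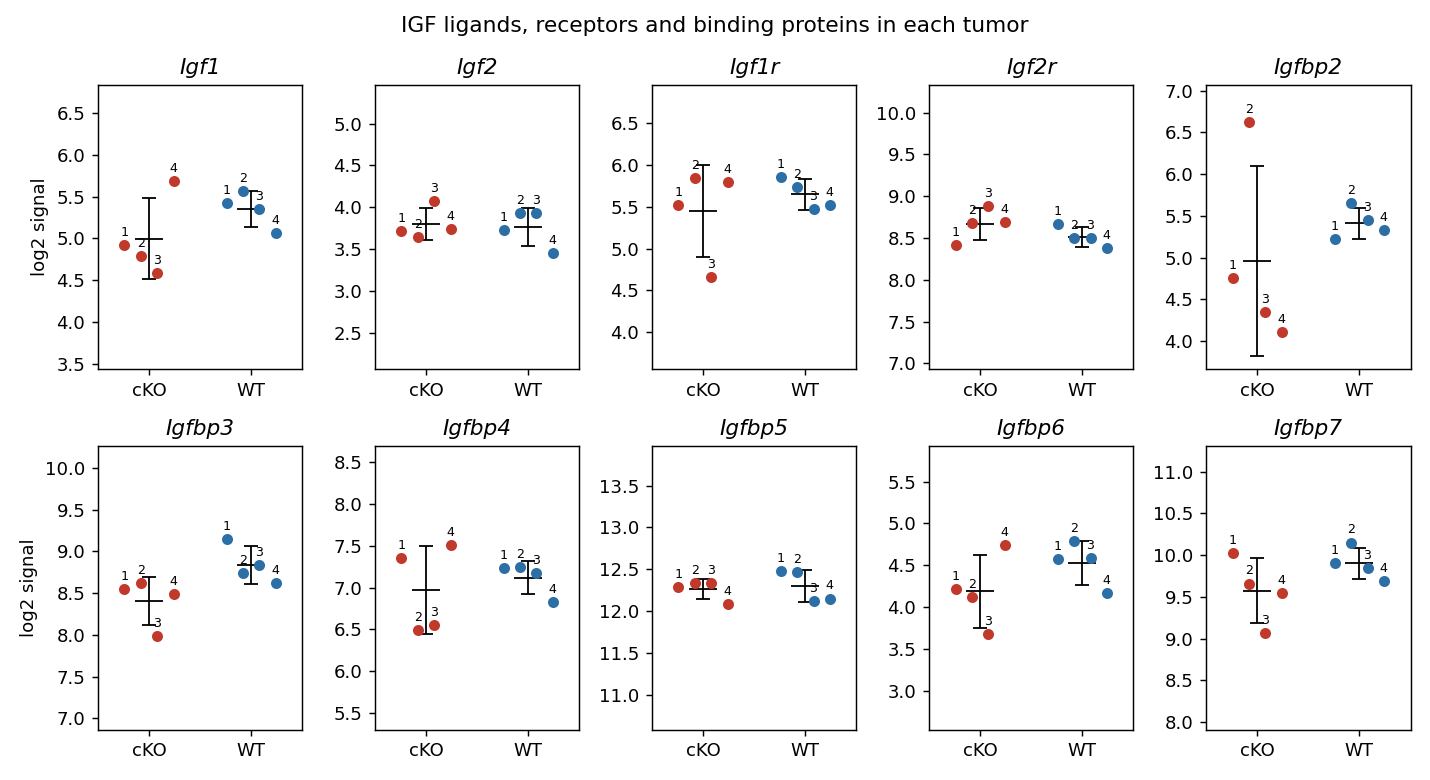
Log2 signal of each member in each tumor, with cKO left and WT right, the replicate number above each point, and the mean and SD as black lines (n = 4 per group). Every panel spans the same number of log2 units, so that the narrow spread of Igfbp5 and the wide spread of Igfbp2 among cKO tumors can be compared by eye.

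The signalling receptor Igf1r had log2 signals of 5.53, 5.85, 4.66 and 5.79 in cKO 1 to 4, against 5.86, 5.74, 5.47 and 5.52 in WT 1 to 4. Only cKO 3 lay outside the range of the WT tumors. The difference was −0.19 (SE 0.24, 95% interval −0.75 to 0.36, limma adjusted p 0.839), and it turned to 0.074 without cKO 3. The clearance receptor Igf2r went the other way, with 8.41, 8.68, 8.88 and 8.70 in cKO 1 to 4, against 8.66, 8.50, 8.50 and 8.38 in WT 1 to 4. Here 3 cKO tumors lay above every WT tumor and cKO 1 lay within the WT range. The difference was 0.15 (SE 0.11, 95% interval −0.099 to 0.41, limma adjusted p 0.691), and it was −0.037 among arrays 1 to 4 and 0.35 among arrays 5 to 8.

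Among the binding proteins, Igfbp3, the main carrier of circulating IGFs, stood closest to the threshold. Its log2 signals were 8.55, 8.62, 7.99 and 8.49 in cKO 1 to 4, against 9.15, 8.74, 8.84 and 8.62 in WT 1 to 4. In 3 cKO tumors the signal was below every WT tumor, and cKO 2 lay level with WT 4. The means were 8.41 ± 0.29 in cKO and 8.83 ± 0.23 in WT (SD, n = 4 each), a difference of −0.42 (SE 0.16, limma adjusted p 0.463, unadjusted p 0.0280). That is 74.5% of the WT signal, with a 95% interval from 57.8% to 96.1%. The difference kept its sign with any 1 tumor left out, between −0.50 and −0.28, and was −0.36 among arrays 1 to 4 and −0.49 among arrays 5 to 8. In the annotation, Igfbp3 lies beside Igfbp1, another binding protein, which had means of 3.49 in cKO and 3.29 in WT, below the array medians.

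Igfbp7, also known as angiomodulin, had log2 signals of 10.02, 9.66, 9.07 and 9.55 in cKO 1 to 4, against 9.90, 10.15, 9.85 and 9.69 in WT 1 to 4. Again 3 cKO tumors lay below all WT tumors, while cKO 1 lay among them. The difference was −0.33 (SE 0.19, 95% interval −0.75 to 0.10, limma adjusted p 0.623), and −0.16 without cKO 3. Igfbp5 had signals of 12.29, 12.34, 12.34 and 12.08 in cKO 1 to 4 and of 12.48, 12.46, 12.12 and 12.15 in WT 1 to 4. The groups overlapped, with a difference of −0.039 (SE 0.11, 95% interval −0.30 to 0.22, limma adjusted p 0.941). The interval allows between 81.4% and 116% of the WT signal. These signals lay near the top of the scale, where the highest value of any row was 12.9, and array signals can be compressed there.

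Igfbp2 had the widest spread of the family among cKO tumors. Its log2 signals were 4.76, 6.63, 4.34 and 4.11 in cKO 1 to 4, against 5.22, 5.65, 5.45 and 5.33 in WT 1 to 4. Of the cKO tumors 3 lay below every WT tumor, and cKO 2 lay above every WT tumor. The means were 4.96 ± 1.14 in cKO and 5.41 ± 0.19 in WT (SD, n = 4 each), and the difference of −0.45 (SE 0.47, limma adjusted p 0.800) was within that spread. Without cKO 2 it was −1.01 with an adjusted p of 0.163, the lowest of any member under any alternative, and it was 0.26 among arrays 1 to 4 and −1.16 among arrays 5 to 8. Igfbp2 and Igfbp5 are neighbours in the annotation, and across the 8 tumors their signals had a Pearson r of 0.32 (Spearman 0.26), and of −0.044 without cKO 2 and cKO 4.

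Igfbp4, which binds IGFs without the potentiating action described for some other family members, had log2 signals of 7.35, 6.49, 6.55 and 7.51 in cKO 1 to 4, against 7.23, 7.25, 7.18 and 6.82 in WT 1 to 4. The cKO tumors formed a high pair, cKO 1 and cKO 4, above every WT tumor, and a low pair below every WT tumor. The difference of −0.15 (SE 0.24, 95% interval −0.69 to 0.39, limma adjusted p 0.878) was within the spread, and it turned to 0.015 without cKO 2. Igfbp6, which prefers IGF2 over IGF1, had 4.21, 4.12, 3.67 and 4.74 in cKO 1 to 4, against 4.58, 4.79, 4.58 and 4.17 in WT 1 to 4. The lowest values were in cKO 3 and cKO 2, while cKO 4 lay level with WT 2. The difference was −0.34 (SE 0.22, 95% interval −0.83 to 0.15, limma adjusted p 0.656), −0.53 without cKO 4 and −0.17 without cKO 3. Its mean signal was below 5, so the change in RNA can be understated.

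The members differed in how they varied from tumor to tumor. Igf1 and Igfbp6 had a Pearson r of 0.97 (Spearman 0.93) across the 8 tumors, Igf1 and Igfbp4 one of 0.81 (0.74), and Igfbp4 and Igfbp6 one of 0.80 (0.76). Without the 2 tumors farthest from the median of the gene named first these were 0.96, 0.61 and 0.56. All 3 were highest or near highest in cKO 4 and low in cKO 2, cKO 3 and WT 4. Igfbp2 did not share that order, with an r of −0.13 against Igf1, −0.43 against Igfbp4 and 0.063 against Igfbp6. This rested on cKO 2 and cKO 4, the tumors farthest from its median, without which r was 0.53 against Igfbp4 and 0.89 against Igfbp6. Igf1 and Igfbp2 had an r of −0.26 without cKO 3 and cKO 4. Members measured on 1 array share that tumor's RNA and scaling, and these correlations are descriptions over 8 tumors.

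**Figure D3:**
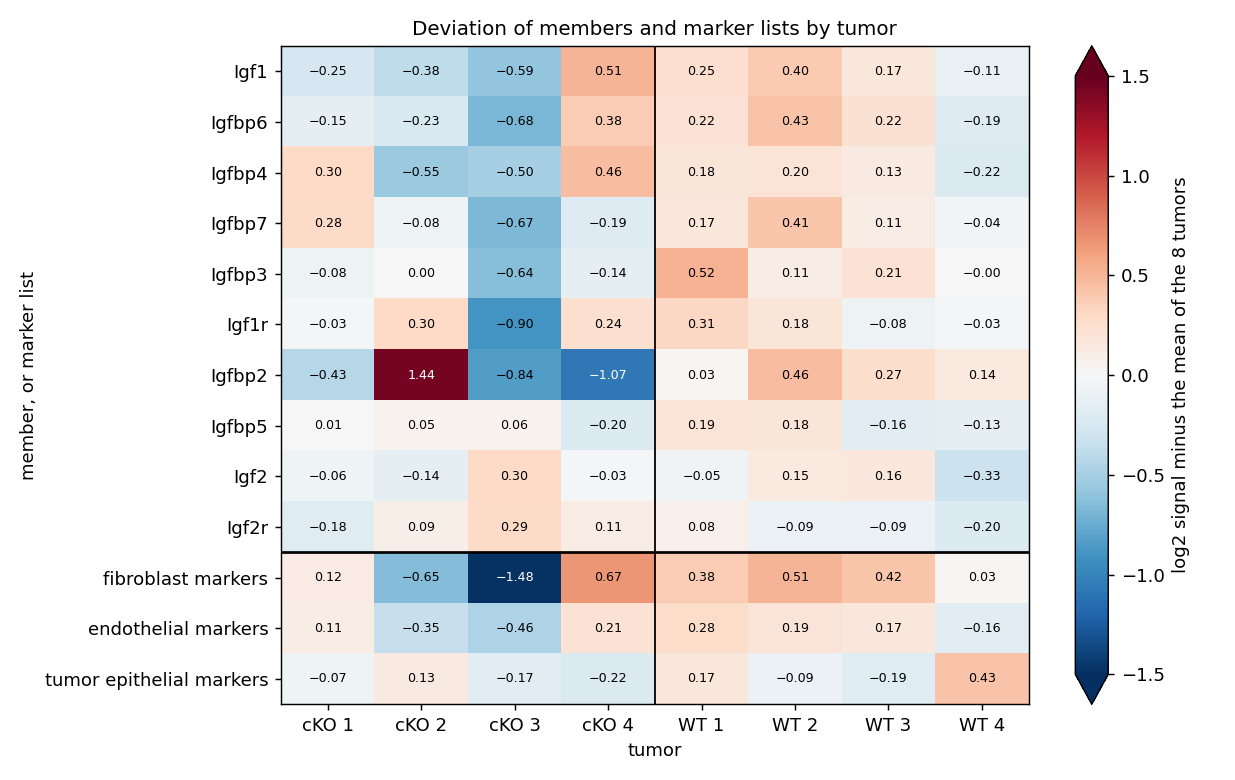
Deviation of each member, and of the scores of 3 marker lists below the black line, from its own mean over the 8 tumors (log2 units, cKO tumors left and WT tumors right). Igf1, Igfbp6 and Igfbp4 are low in cKO 3 and high in cKO 4 like the fibroblast markers, while Igfbp2 is highest in cKO 2.

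The 16 fibroblast markers, among them Col1a1, Pdgfra and Lum, followed the same order. Their score, the mean over markers of the log2 signal minus that marker's mean over the tumors, was 0.12, −0.65, −1.48 and 0.67 in cKO 1 to 4, against 0.38, 0.51, 0.42 and 0.025 in WT 1 to 4. Their mean level ran from 5.38 to 7.53 in cKO tumors and from 6.89 to 7.37 in WT tumors. All 16 were lower in cKO on average, where 43.5% of all rows were. In limma 0 passed the adjusted threshold and 5 had an unadjusted p below 0.05, where 9.68% of all rows did. The median difference was −0.57. That median was −0.26 without cKO 3 and −0.82 without cKO 4, and it was −0.65 among arrays 1 to 4 and −0.33 among arrays 5 to 8. Across the 8 tumors this score had a Pearson r of 0.91 with Igf1 (Spearman 0.95), 0.93 with Igfbp6 (0.98) and 0.87 with Igfbp4 (0.81). Without cKO 2 and cKO 3, the tumors farthest from the median score, r was 0.95, 0.96 and 0.70. With Igfbp3 r was 0.71 and with Igfbp7 0.75, but without those tumors these were 0.077 and −0.13, so both rested on them. Igf1r had an r of 0.74 (Spearman 0.31), and of 0.63 without those tumors. With Igfbp2 it was −0.022, and −0.29 without those tumors, and with Igfbp5 it was −0.21.

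The 12 endothelial markers had a score of 0.11, −0.35, −0.46 and 0.21 in cKO 1 to 4, against 0.28, 0.19, 0.17 and −0.16 in WT 1 to 4, close to the order of the fibroblast score. Their mean level ran from 4.99 to 5.66 in cKO tumors and from 5.30 to 5.73 in WT tumors. Of them 11 of 12 were lower in cKO on average, where 43.5% of all rows were. In limma 1 had an unadjusted p below 0.05, beside 9.68% of all rows. A mean below 5 was found for 6, among them Vwf and Cldn5. The endothelial score had a Pearson r of 0.94 with Igfbp4 (Spearman 0.74), 0.90 with Igfbp6 (0.83) and 0.87 with Igf1 (0.90). Without cKO 2 and cKO 3 these were 0.78, 0.76 and 0.63. With Igfbp7 r was 0.72 (Spearman 0.48) and with Igfbp3 0.71 (0.52), and without those tumors 0.26 and 0.45. Of the 9 marker scores, Igfbp7 had its highest r with that of the 11 pericyte and smooth muscle markers, 0.82 (Spearman 0.69), and 0.82 without cKO 3 and WT 4. For Igfbp2 the highest r was 0.62 (Spearman 0.60), with the score of the 7 basal and myoepithelial markers, and 0.87 without cKO 3 and WT 3. With the tumor epithelial score Igfbp2 had an r of 0.46 (Spearman 0.38), and of 0.82 without WT 1 and WT 4. For Igfbp3 the Spearman value farthest from 0 was −0.79, with the score of the 22 cell cycle genes. Its Pearson r was −0.67, and −0.59 without cKO 4 and WT 1. The part of the fibroblast, endothelial, pericyte, basal, epithelial or cell cycle markers in the differences of the members was not tested. In whole tumors, fewer cells of a type and less RNA per cell cannot be told apart.

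**Figure D4:**
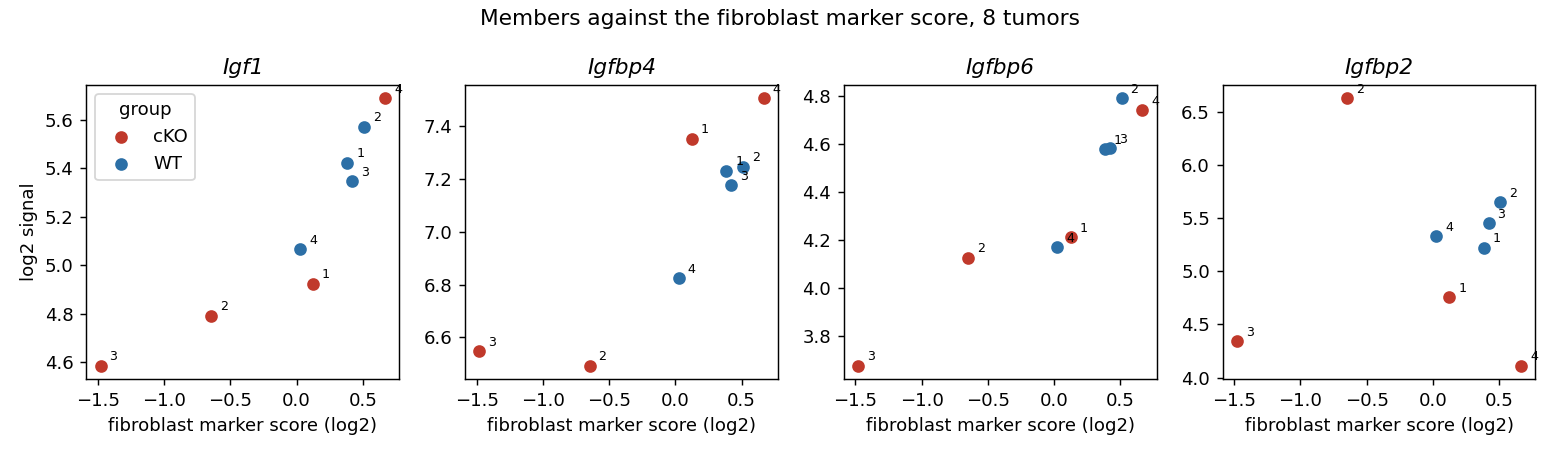
Log2 signal of Igf1, Igfbp4, Igfbp6 and Igfbp2 against the fibroblast marker score in the 8 tumors (cKO red, WT blue, replicate numbers beside the points). Igf1, Igfbp4 and Igfbp6 are higher in tumors with a higher score, with Pearson r of 0.91, 0.87 and 0.93, and Igfbp2 shows no such order.

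The promoters of Igf1, Igfbp4 and Igfbp6, whose signals varied together, are shown with the first of the 2 promoters listed for Igfbp2, whose signal did not follow theirs over all 8 tumors but did follow that of Igfbp6 without cKO 2 and cKO 4. Each runs from 250 bases before to 50 bases after an annotated start in RefSeq (GRCm38.p6), 5′ to 3′ on the strand of the gene. All 10 members had at least 1 entry in that table, 4 of them for Igf2. Capitals mark matches on either strand to 5 motifs, none of which overlapped another. The TATA box was searched as TATAAA, the CCAAT box by the letters of its name and the GC box as GGGCGG. The AP-1 site was searched as TGANTCA and the E box as CACGTG.
Igf1, chr10:87860861-87861160, plus strand: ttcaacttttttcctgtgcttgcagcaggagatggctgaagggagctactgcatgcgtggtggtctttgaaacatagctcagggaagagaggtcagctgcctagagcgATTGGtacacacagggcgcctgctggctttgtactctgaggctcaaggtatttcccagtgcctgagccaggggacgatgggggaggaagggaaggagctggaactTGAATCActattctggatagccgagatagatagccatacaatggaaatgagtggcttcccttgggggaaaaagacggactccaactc
Igfbp4, chr11:99040994-99041293, plus strand: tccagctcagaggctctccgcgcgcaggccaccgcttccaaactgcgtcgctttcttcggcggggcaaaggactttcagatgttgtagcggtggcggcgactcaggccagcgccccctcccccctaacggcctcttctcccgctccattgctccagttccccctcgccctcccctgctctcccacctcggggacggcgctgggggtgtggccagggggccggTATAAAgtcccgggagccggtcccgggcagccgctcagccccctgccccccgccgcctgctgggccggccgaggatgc
Igfbp6, chr15:102143936-102144235, plus strand: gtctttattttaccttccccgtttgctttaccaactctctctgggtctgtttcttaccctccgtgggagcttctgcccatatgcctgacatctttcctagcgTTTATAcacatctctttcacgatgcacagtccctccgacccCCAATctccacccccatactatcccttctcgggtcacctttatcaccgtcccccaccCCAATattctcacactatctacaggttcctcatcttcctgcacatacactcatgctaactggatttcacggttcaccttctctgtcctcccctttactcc
Igfbp2, chr1:72824230-72824529, plus strand: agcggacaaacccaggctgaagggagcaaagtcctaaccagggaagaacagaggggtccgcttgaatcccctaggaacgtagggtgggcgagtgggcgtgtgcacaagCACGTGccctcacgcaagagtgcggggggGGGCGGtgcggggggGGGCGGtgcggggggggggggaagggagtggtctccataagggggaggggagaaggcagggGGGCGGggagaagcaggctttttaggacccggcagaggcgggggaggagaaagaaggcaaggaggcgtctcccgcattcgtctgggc
As matches to these letters, with position not weighed, the Igf1 promoter held 1 CCAAT box and 1 AP-1 site, and that of Igfbp4 held 1 TATA box. That of Igfbp6 held 2 CCAAT boxes and 1 match to the TATA letters, on the strand opposite to the gene. The Igfbp2 promoter held 3 GC boxes and 1 E box. Of 32851 promoters of that length, 13.6% held a TATA box, 37.4% a CCAAT box, 35.7% a GC box, 7.81% an AP-1 site and 7.15% an E box. No motif was common to the 3 promoters whose genes varied together. They also differed in base composition, with 6 CpG dinucleotides in Igf1, 27 in Igfbp4 and 8 in Igfbp6, beside 18 in Igfbp2 and a median of 7 over all promoters.

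The members were more variable in cKO than in WT tumors. The SD was larger in cKO for 8 of 10 members, where 58.8% of all rows had a larger SD in cKO, and the exceptions were Igf2 and Igfbp5. The median SD of the members was 0.42 in cKO and 0.20 in WT on the log2 scale. Of the 10 members, 5 had their lowest signal of all 8 tumors in cKO 3, namely Igf1, Igf1r, Igfbp3, Igfbp6 and Igfbp7, where 13.6% of all rows did. These counts were chosen after the values had been seen and were not tested. Leaving out cKO 3 brought the median difference of the members to −0.11, against −0.26 with all tumors.

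**Figure D5:**
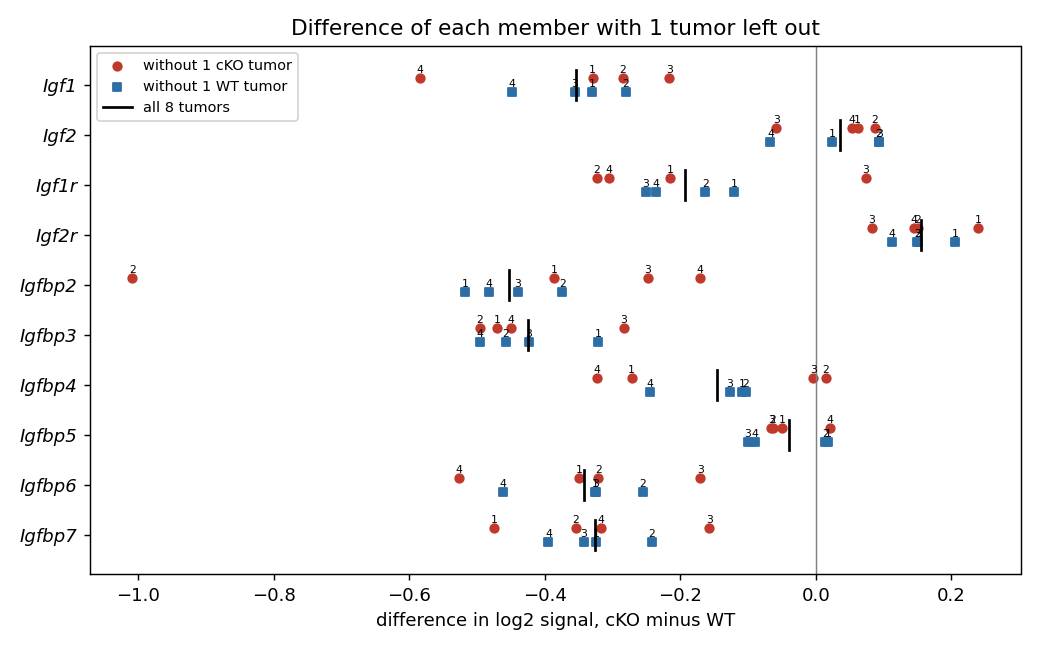
Difference in log2 signal between cKO and WT tumors for each member after leaving out 1 tumor, with the replicate number of the tumor left out (red circles cKO, blue squares WT) and the value with all 8 tumors as a black line. Igfbp2 ran from −1.01 without cKO 2 to −0.17 without cKO 4, and Igf1, Igfbp2, Igfbp3, Igfbp6 and Igfbp7 stayed below 0 throughout.

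The other genes of the pathway were read from the same limma fit in lists, and 0 genes passed the adjusted threshold in any of them. At an unadjusted p below 0.05 in limma stood Stc1 and Mmp2 of 16 proteases and inhibitors, and Irs1 of 30 signalling genes. The others were Stat5b of 8 growth hormone and prolactin axis genes, Plagl1 of 14 imprinted genes and Ccn5 of 6 CCN genes. Of all rows, 9.68% stood there. Proteases of the binding proteins and their inhibitors were lower in cKO in 14 of 16 genes, where 43.5% of all rows were, with a median difference of −0.14 on the log2 scale. Of them 2 had an unadjusted p below 0.05, a share near the 9.68% of all rows. Stc1, a stanniocalcin known to inhibit the IGFBP protease PAPPA, had log2 signals of 5.44, 4.28, 5.83 and 5.81 in cKO 1 to 4, against 6.35, 5.91, 6.87 and 6.36 in WT 1 to 4. The groups did not overlap, which held for 1 of the 16 genes beside 5.42% of all rows. The Stc1 difference was −1.04 (SE 0.34, limma adjusted p 0.397). Mmp2, a gelatinase that MT1-MMP activates, had 7.57, 6.83, 5.85 and 8.23 in cKO 1 to 4, against 8.66, 8.30, 8.16 and 8.34 in WT 1 to 4. Of the cKO tumors, cKO 4 alone reached the WT range, and the difference was −1.24 (SE 0.43, limma adjusted p 0.422). Htra1, a secreted serine protease, stood at −0.45 (adjusted p 0.528) and the kallikrein Klk1 at −0.28 (0.559). Without cKO 3, Mmp2 was −0.82 and Htra1 −0.27, and without cKO 2, Stc1 was −0.68. The list's score, too, was lowest in cKO 3 and highest among cKO tumors in cKO 4.

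Of 30 measured genes that carry the IGF and insulin signal inside the cell, 22 were lower in cKO and 8 higher. Their median was −0.077, and 43.5% of all rows were lower. Irs1, the adaptor that links IGF1R to PI3 kinase, had log2 signals of 7.41, 7.58, 6.87 and 6.25 in cKO 1 to 4, against 8.19, 7.60, 7.40 and 8.23 in WT 1 to 4. The groups overlapped, with cKO 1 and cKO 2 near WT 2 and WT 3 and with cKO 4 lowest. The Irs1 difference was −0.83 (SE 0.31, limma adjusted p 0.448), and −0.57 as the mean of its rows (SE 0.18, adjusted p 0.359). The kinase Pdpk1, which activates AKT, did not overlap between the groups, at −0.16 (SE 0.072, limma adjusted p 0.534). Such separation held for 1 of the 30 genes, beside 5.42% of all rows. The PI3 kinase subunit Pik3r1 stood at −0.27 and the kinase Mtor at −0.24 (adjusted p 0.541 and 0.563). The insulin receptor Insr, which can pair with IGF1R, stood at −0.27 (adjusted p 0.668) among 8 other ligands, receptors and carriers, of which 4 were lower. Insrr, at 0.19, and Igfbpl1, at 0.15, both had means below the array medians.

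The growth hormone and prolactin axis, which drives Igf1 transcription through STAT5 in liver and acts in the mammary gland, had 4 of 8 genes lower and a median of −0.034, which lay between −0.12 without cKO 2 and 0.013 without cKO 1. Stat5b stood at −0.27 (SE 0.12, adjusted p 0.507) and Stat5a at −0.21 (SE 0.11, adjusted p 0.586). The growth hormone receptor Ghr stood at 0.17 and its kinase Jak2 at −0.082 (adjusted p 0.803 and 0.855). In the CCN family, secreted proteins with a domain resembling that of the IGF binding proteins, 4 of 6 were lower, with a median of −0.15. Of all rows, 43.5% were lower. Ccn5 stood at −0.84 (SE 0.32, adjusted p 0.463), Ccn2 at −0.51, Ccn1 at −0.19 and Ccn6 at 0.13 (adjusted p 0.689, 0.701 and 0.741). The median of the family was 0.076 among arrays 1 to 4 and −0.14 among arrays 5 to 8. Ccn2 was −0.18 without cKO 3 and −0.39 as the mean of its rows, and Ccn1 was −0.085 without WT 4.

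For each member the genes with the most similar signal across the 8 tumors were also sought among genes whose mean was 5 or more. Igf1 was closest to Ddr2, a collagen receptor kinase (Pearson r 0.97), to Fbh1 (0.95) and to the collagen chain Col14a1 (0.95). Igfbp6 was closest to Gid8 (0.98), Igf1 (0.97) and Ddr2 (0.96), and Igfbp4 to the semaphorin receptor Plxnd1 (0.97), Lgr6 (0.95) and Pcsk6 (0.95). Igfbp2 was closest to the kinase Tnik (0.97), the lysyl oxidase family gene Loxl3 (0.97) and the adhesion gene Chl1 (0.96), and Igfbp3 to Jade1 (0.97), Rab3ip (0.97) and Icmt (0.96). Igfbp7 was closest to Cerox1 (0.97), the lysosomal lipase Lipa (0.96) and Use1 (0.95), and Igfbp5 to Zfp830 (0.98), Dgcr6 (0.95) and Gba2 (0.94). Igf1r was closest to Vhl (0.97), Aplp2 (0.96) and Mob1a (0.95), and Igf2r to Ganab (0.97), Rps6kc1 (0.96) and Tmem186 (0.95). With 8 tumors and 9514 or more genes searched, every member had a gene with an r of at least 0.965, and the highest, 0.997 with Cracr2b, belonged to the dim row of Igf2, followed there by Rufy1 (0.96) and Mapk12 (0.96).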

How the data were processed

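Total RNA (400 ng per tumor) from 8 whole tumors was profiled on Affymetrix arrays, per the labels. The deposited file gives a log2 signal for every array row in every tumor. RMA, which normalizes and summarises probes, and limma are named in the submitters' processing notes, with neither version nor settings. The values lay between 0.853 and 12.9, and no 2 arrays shared more than 0.058% of their values. No detection call was used. Precision is limited by the number of arrays. Of 41345 rows, the 23521 with 1 symbol entered a linear model with moderated variances (limma 3.58.1, R 4.3.3). It compared cKO with WT, without covariates and two-sided, with Benjamini-Hochberg adjustment over all of them and a threshold of 0.05. Symbols of 23328 rows were updated by gene identifier from RefSeq (GRCm38.p6). The highest-mean row stood for a gene. The fit was tested on simulated data.

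The members and lists were chosen with earlier results of these data known. The genes named are the members, Mmp14, the 4 genes with the smallest p of each of 7 pathway lists, and the 3 genes most correlated with each member. Alternatives were quantile normalization, a shift to 1 median, a filter on rows with a mean below 5, trended robust variances, all rows, the mean of a gene's rows, blocks for replicate and array number, the fit within each set of arrays, and leaving out each tumor. Other marker lists (basal cells, pericytes, macrophages, adipocytes, skeletal muscle, cell cycle) were summarised beside the members.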

Additional observations from a re-analysis of the deposited data

Results flagged for a closer look

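Of 90 sets of 4 tumors examined, 4 held a tumor far from the others, where chance gives about 1 in 20. Among the members this was Igfbp4 in WT tumors, where WT 4 stood at a log2 signal of 6.82 and the other WT tumors between 7.18 and 7.25. The gap was 0.836 of the range of that group, above Dixon's critical value for 4 samples. WT 4 was also the WT tumor with the lowest fibroblast score, 0.025, and the lowest endothelial score, −0.16; the part of these in its Igfbp4 signal was not tested. The other 3 were Klk1 at 3.08 in WT 4 (others 3.51 to 3.60), Jak2 at 8.16 in WT 3 (others 8.49 to 8.54) and Sgce, an imprinted sarcoglycan gene, at 4.16 in WT 2 (others 4.81 to 4.94).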

How the results depend on the processing

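No member passed the threshold under any of the 10 alternative settings or with any 1 of the 8 tumors left out, and the lowest adjusted p of a member was 0.163. The count of members lower in cKO lay between 6 and 9 over the settings and between 7 and 9 with 1 tumor left out, and the median member difference between −0.32 and −0.11 with 1 tumor left out. Of 98 member differences under the settings other than leaving out a tumor, 93 kept their sign; the 5 that did not came from fits within 1 set of arrays, with 2 tumors per group. Within arrays 1 to 4, Igf2 was −0.15, Igf2r −0.037, Igfbp2 0.26, Ghr −0.055, Ccn2 0.11 and Ccn1 0.055; within arrays 5 to 8, Igfbp4 was 0.025, Igfbp5 0.076 and Jak2 0.043. With 1 tumor left out, differences ran from −0.067 to 0.094 for Igf2, from −0.32 to 0.074 for Igf1r, from −0.32 to 0.015 for Igfbp4 and from −0.10 to 0.021 for Igfbp5. The cause of these turns was not tested.

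The count of rows past the threshold was 2 (1 higher and 1 lower in cKO), 3 after the shift to 1 median (2 higher and 1 lower), 8 over all rows of the table (7 higher and 1 lower), 1 with array number as a block, 0 within either set of arrays, and between 0 and 3 with 1 tumor left out. With the replicate number as a block it was 0, with 1898 rows at an unadjusted p below 0.05 in limma, against 2277 without it, and Mmp14 stood at −1.40 with an adjusted p of 0.353. The deviations of same-numbered tumors from their group means correlated at −0.021, −0.20, 0.29 and −0.24 for numbers 1 to 4, so the numbers were not taken to pair the tumors. The array number block, which no label calls a batch, set arrays 1 to 4 against 5 to 8, and so replicates 1 and 2 against 3 and 4. In it Mmp14 stood at −1.40 with a limma adjusted p of 0.0708. The filter left out Igf2 and Igfbp6. It moved list medians to −0.46 for imprinted genes, −0.51 for the CCN family and −0.092 for the growth hormone axis. The median of the other ligands, receptors and carriers moved from 0.012 to −0.22. That of the fibroblast markers was −0.92, a change within the spread of their score. The growth hormone axis had −0.17 within arrays 1 to 4. As each member had 1 row, the mean of a gene's rows changed no member difference.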

Other observations

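The Igf2 region held 2 further rows that belong to no member. The row of the microRNA gene Mir483, which lies within Igf2, had log2 signals of 6.28, 6.21, 6.29 and 6.15 in cKO 1 to 4 and of 5.88, 6.30, 5.94 and 6.09 in WT 1 to 4. A row annotated to both the imprinted H19 and the microRNA gene Mir675 had 5.43, 4.99, 4.40 and 6.05 in cKO 1 to 4, against 5.26, 6.41, 5.33 and 5.96 in WT 1 to 4. Neither order fully matches the dim Igf2 row, which was highest in cKO 3. There the Mir483 row was also near its highest, while the H19 and Mir675 row was lowest. In WT 3 the Igf2 row was among its highest, at 3.93, and the Mir483 row among its lowest. No correlation was computed for these 2 rows. Of 14 measured imprinted genes near Igf2 or co-regulated with it, 8 were lower in cKO, with a median of −0.085. Of all rows, 43.5% were lower. In limma 0 passed the adjusted threshold and 1 had an unadjusted p below 0.05, beside 9.68% of all rows. The zinc finger gene Plagl1 stood at −0.35 (adjusted p 0.505), and at −0.15 as the mean of its rows. The others named were Sgce at −0.33, Zim1 at −0.18 and Dcn, which is also a fibroblast marker, at −1.04, and at −0.27 without cKO 3. Igf2bp3, which binds Igf2 mRNA, did not overlap between the groups, with means of 3.58 in cKO and 3.44 in WT, both below the array medians. Such separation was seen in 5.42% of all rows.

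Among the other marker lists, all 22 measured cell cycle genes were higher in cKO on average, by a median of 0.77, where 43.5% of all rows were lower. In limma 0 passed the adjusted threshold and 21 had an unadjusted p below 0.05, beside 9.68% of all rows. The groups did not overlap in 20 of them, beside 5.42% of all rows. Macrophage markers were higher in 10 of 15 (median 0.39). Of these 15, 8 had an unadjusted p below 0.05 in limma, and 5 did not overlap between the groups. Pericyte and smooth muscle markers were lower in 9 of 11 (median −0.28), with 3 at an unadjusted p below 0.05 in limma. Skeletal muscle markers were lower in 7 of 10 (median −0.31), basal and myoepithelial markers in 4 of 7 (median −0.077) and adipocyte markers in 5 of 9 (median −0.052). In limma these lists had 0, 1 and 0 genes at an unadjusted p below 0.05.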
